A study of Mus musculus with 8 samples.

Results

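Collagen chain genes encode the polypeptides that wind in threes into collagen molecules, the main scaffold proteins of connective tissue. They were taken here as all probes of the array whose gene symbol is Col, a number, the letter a and a number. This gave 92 of 56605 probes, for 44 genes: 11 fibrillar chains, 6 chains of type IV collagen (basement membrane) and 27 other chains. Liver RNA of female NFS/sld mice, a strain that carries the sld mutation of the salivary glands, was measured on 8 one-colour arrays. For 4 of these the mice had undergone thymectomy (Tx) at day 3 of life, a model of primary Sjögren's syndrome, and the liver was taken 8 weeks after the operation. The other 4 came from mice of the same strain and sex without thymectomy (nonTx). The labels call the replicates independent without naming animals, and give neither a sham operation nor the age of the nonTx mice. The p-values therefore cover only the spread between these RNA samples, which may be technical.

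Fibrillar collagens form the rope-like fibrils of the portal tract, liver capsule and vessel walls, and accumulate in fibrosis. Type IV collagen forms the sheet-like network of basement membranes, and the other families decorate fibrils, form beaded filaments, cross the cell membrane or sit near vessels and epithelia. In liver most collagen is made by stellate cells, portal fibroblasts and, for some chains, endothelial cells and hepatocytes. The comparison asks whether the RNA of these chains differs in liver after neonatal thymectomy. In whole liver RNA, fewer cells of a type and less RNA per cell cannot be told apart.

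Levels of Col1a1, Col1a2 and Col3a1, the chains of the main fibrils, varied together over the arrays, with the values given further on. The upstream sequences of Col1a2 and Col3a1 are therefore set side by side. They are the 250 bases before the annotated start in RefSeq on GRCm38.p6, on the plus strand, at chr6:4505368-4505617 for Col1a2 and chr1:45311288-45311537 for Col3a1. Capitals mark the motif CCAAT, the motif TATAA or the motif GGGCGG on either strand.
Col1a2: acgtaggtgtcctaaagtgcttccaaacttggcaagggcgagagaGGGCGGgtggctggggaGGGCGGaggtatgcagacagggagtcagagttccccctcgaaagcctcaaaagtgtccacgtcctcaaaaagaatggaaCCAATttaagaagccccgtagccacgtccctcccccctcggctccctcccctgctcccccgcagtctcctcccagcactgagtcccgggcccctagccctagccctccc
Col3a1: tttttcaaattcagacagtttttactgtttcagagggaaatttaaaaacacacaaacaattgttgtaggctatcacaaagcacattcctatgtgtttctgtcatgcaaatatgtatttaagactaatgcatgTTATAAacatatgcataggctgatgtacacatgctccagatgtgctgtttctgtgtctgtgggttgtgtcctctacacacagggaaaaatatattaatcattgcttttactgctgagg

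Both stretches lie outside the transcribed region. The Col1a2 stretch held 1 CCAAT and 2 GGGCGG matches and 0 TATAA, whereas that of Col3a1 held 2 overlapping TATAA matches, 1 per strand, and neither of the other motifs. Over all 32851 upstream stretches of this length, 33.8% held CCAAT (reverse complement ATTGG), 32.7% held GGGCGG (reverse complement CCGCCC) and 22.8% held TATAA (reverse complement TTATA). Of the 35 collagen genes found in that table, 13, 21 and 7 genes held them in the same order. The annotated starts of Col4a1 and Col4a2 lie 21 bases apart on chromosome 8, on opposite strands. A match describes letters in this stretch and is not evidence of binding.

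Values are the processed signal, the intensity of a spot after background subtraction. The comparison rests on the scaled log2 signal, which is log2 of the signal less that of the array's 75th percentile, and differences are Tx minus nonTx. The 75th percentile was 273.6 to 301.8 on nonTx arrays and 224.8 to 330 on Tx arrays, so raw signals of Tx 2 to 4 stand slightly low throughout and those of Tx 1 slightly high. Between 51.1% and 57.1% of probes were well above background. All 8 arrays lay on 1 slide, with nonTx in its first row and Tx in its second, so that slide row and group cannot be told apart. The 10 spike-in RNAs were all higher on Tx arrays after scaling, by 0.06 to 0.37 (log2), and their part in the results was not tested. All 10 hepatocyte markers were well above background in enough arrays to be tested.

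No collagen chain passed the test between Tx and nonTx. Of the 44 chains, 28 had a probe well above background on at least 3 of the 4 arrays of a group and were tested, and 0 of these reached an adjusted p of 0.05 in limma, which over all 30955 probes and over all 16495 genes called 0% as well. The smallest adjusted p of any probe was 0.0577. At an unadjusted p under 0.05, limma called 1 of 28 chains (Col20a1), where it called 13.9% of all genes. On scaled values the Tx and nonTx arrays of 0 of 28 chains did not overlap, against 8.06% of all genes.

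Over the 28 tested chains, 6 had a higher mean in Tx and 22 a lower one, with a median of -0.08 and a range of -0.78 to 0.15 (log2), where the median of all genes was 0.03 and 56.3% of genes had a higher mean in Tx. The sign of the chain median depends on the scaling, since it was 0.02 when arrays were scaled to their median and -0.24 with no scaling. The median of all genes moved alike, to 0.13 and -0.13, and stayed above that of the chains. The sign also depends on 1 array, as the chain median was 0.03 without Tx 2. In addition, 4 chains passed the filter only through the nonTx arrays, which favours a lower mean in Tx. Over the 23 chains measured on all 8 arrays, 6 were higher and 17 lower with a median of -0.06, and no difference was larger than 0.33 in size. The 95% interval lay within 1 log2 unit on either side of 0 for 26 of the 28 chains.

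**Figure D1:**
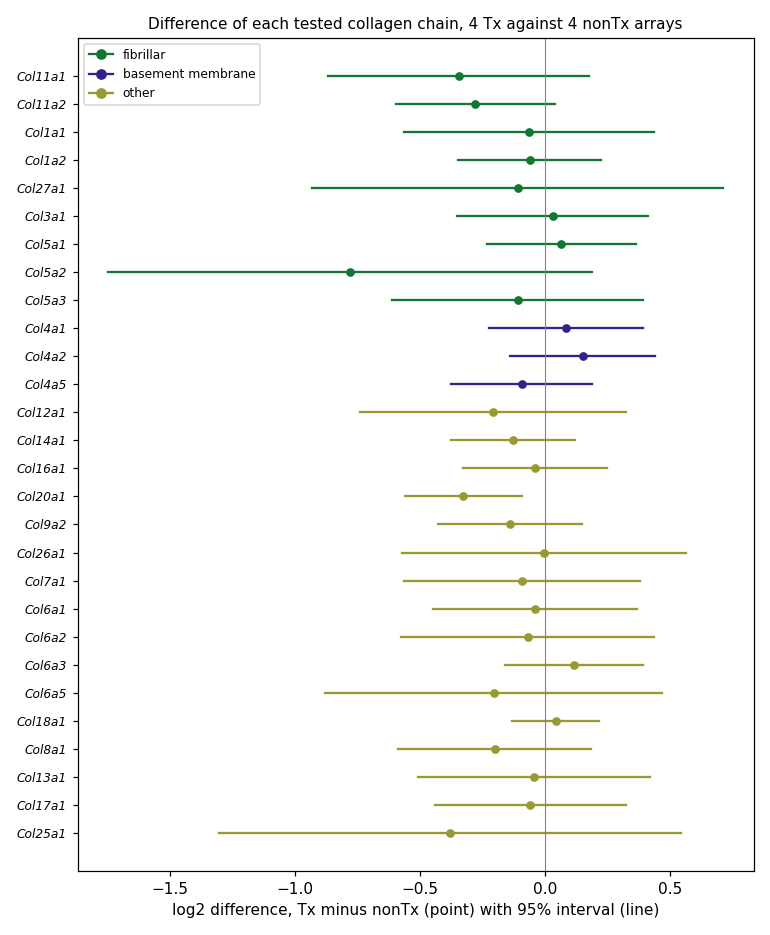
Log2 difference of each tested collagen chain, Tx minus nonTx (point), with its 95% interval (line), coloured by class. The intervals of 27 of 28 chains include 0, and that of Col20a1 runs from -0.56 to -0.09.

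Among the fibrillar chains, 9 of 11 were tested, of which 2 were higher and 7 lower, with a median of -0.11, which was 0.02 without Tx 2. Col1a1 and Col1a2 are the 2 kinds of chain of type I collagen, the main fibril former. The Col1a1 signal was 119, 81.0, 105 and 141 on the nonTx arrays and 129, 63.3, 113 and 83.8 on the Tx arrays, each in the order of the replicate numbers, as throughout. The groups overlapped, with Tx 2 lowest and nonTx 4 highest. The difference was -0.06 ± 0.22 (log2, SE, n = 4 per group), with a 95% interval of -0.56 to 0.44 and an adjusted p of 0.913 in limma. The other tested Col1a1 probes gave -0.01 ± 0.21 and -0.06 ± 0.33.

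The Col1a2 signal was 1232, 926, 1126 and 1309 in nonTx and 1290.4, 802, 994 and 894 in Tx. Tx 2 was again lowest and nonTx 4 highest, and the groups overlapped. Its difference was -0.06 ± 0.13, with an interval of -0.35 to 0.23 and an adjusted p of 0.85 in limma. A further Col1a2 probe, A_55_P2610616, gave -0.23 ± 0.18.

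Col3a1, the single chain of type III collagen, which shares fibrils with type I, had signals of 893, 598, 1012 and 988 in nonTx and 1112, 616, 782 and 700.3 in Tx. Its highest raw signal was on Tx 1 and its lowest on nonTx 2, so the groups overlapped fully. The difference was 0.03 ± 0.17, with an interval of -0.35 to 0.41 and an adjusted p of 0.949 in limma.

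Type V chains nucleate and limit the width of type I fibrils. Col5a1 differed by 0.07 ± 0.13 and Col5a3 by -0.11 ± 0.23. Col5a2 was dim: its signal was 15.0, 15.8, 16.7 and 22.3 in nonTx and 9.02, 12.5, 3.72 and 15.6 in Tx. It was well above background on 3 nonTx arrays and on none of the Tx arrays, and Tx 3 stood lowest. The measured difference was -0.78 ± 0.43 with an interval of -1.75 to 0.19 and an adjusted p of 0.442 in limma. It entered the test through its nonTx arrays alone, which favours a lower value in Tx, and the interval includes 0. With each Tx value set to at least the lowest signal well above background on its array, the measured nonTx mean was 1.05-fold higher. This value rests on the same selection, is no lower bound on a difference and passed no test. With normexp background correction the difference was -0.07. Without Tx 3 the measured difference was -0.41.

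Type XI chains are found with type II in cartilage and, in part, with type V elsewhere. The Col11a2 signal was 80.4, 58.6, 67.1 and 79.7 in nonTx and 67.7, 57.4, 44.6 and 43.5 in Tx. Tx 3 and Tx 4 were lowest, yet the groups overlapped. The difference was -0.28 ± 0.14, with an interval of -0.60 to 0.04 and an adjusted p of 0.414 in limma. A second probe, A_55_P2507485, gave 0.01 ± 0.23. It was dim, with signals of 11.2 to 27.7, and well above background on 3 nonTx and 2 Tx arrays. It entered the test through nonTx alone.

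Col11a1 had signals of 19.5, 20.01, 19.0 and 12.6 in nonTx and 16.4, 14.1, 9.93 and 10.1 in Tx, and was well above background on 3 nonTx arrays and on none of the Tx arrays. It too entered the test through nonTx alone, which favours a lower value in Tx. Its measured difference was -0.35 ± 0.23, with an interval of -0.87 to 0.18 and an adjusted p of 0.509 in limma, and was 0.06 with normexp, so that no direction is given. Col27a1 is a fibrillar chain known from cartilage. Its signal ran from 76.2 to 194 in nonTx and from 57.5 to 249 in Tx, with a difference of -0.11 ± 0.37. Col2a1, the chain of cartilage fibrils, was well above background on none of the arrays, and Col24a1 on 1 nonTx array.

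Of the basement membrane chains, 3 of 6 were tested, of which 2 were higher and 1 lower, with a median of 0.08. With no scaling this median was -0.07, where that of all genes was -0.13. Col4a1 and Col4a2 form the common network found in all basement membranes. The Col4a1 signal was 471, 425, 419 and 561 in nonTx and 482, 414, 461 and 419 in Tx, and overlapped. Its difference was 0.08 ± 0.14, with an interval of -0.22 to 0.39 and an adjusted p of 0.797 in limma.

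The Col4a2 signal was 389.6, 271, 296 and 353 in nonTx and 416, 285, 273 and 335 in Tx. By raw signal replicate 1 was highest in each group, whereas on scaled values Tx 4 was the highest Tx array. The groups overlapped. The difference was 0.15 ± 0.13, with an interval of -0.14 to 0.44 and an adjusted p of 0.601 in limma. Col4a5, which with Col4a3 and Col4a4 forms the network of the kidney filter, differed by -0.09 ± 0.13. Col4a3, Col4a4 and Col4a6 were well above background on none of the arrays.

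The other chains were tested for 16 of 27, of which 2 were higher and 14 lower, with a median of -0.08. With scaling to the median this was 0.02, where the median of all genes was 0.13, and without Tx 2 it was 0.03. FACIT chains attach to the surface of fibrils. All 5 tested of 9 FACIT chains had a lower mean in Tx, with a median of -0.14, though Col12a1 was 0.05 with normexp background correction and Col16a1 0.06 with scaling to the median. Col12a1 also passed the filter through nonTx alone. Col20a1, a FACIT chain of little known function, had signals of 526, 627, 601 and 587 in nonTx and 548, 395, 408 and 343 in Tx. Tx 2, Tx 3 and Tx 4 were below all nonTx arrays and Tx 1 was not. On scaled log2 values the nonTx arrays stood at 0.80, 1.18, 1.06 and 1.101 and the Tx arrays at 0.73, 0.66, 0.83 and 0.61, so that Tx 3 and nonTx 1 overlapped. The difference was -0.33 ± 0.10, or 1.25-fold lower, with an interval of -0.56 to -0.09 and an adjusted p of 0.311 in limma.

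Col14a1, which binds fibrils and is expressed by fibroblasts, had signals of 149, 124, 149 and 147 in nonTx and 155, 109, 116 and 94.0 in Tx. By raw signal Tx 1 was the highest of all arrays and Tx 4 the lowest, whereas on scaled values nonTx 4 was highest and Tx 4 lowest. Its difference was -0.13 ± 0.11, with an interval of -0.38 to 0.12 and an adjusted p of 0.603 in limma. Col9a2 gave -0.14 ± 0.13, Col12a1 -0.21 ± 0.24 and Col16a1 -0.04 ± 0.13. Col9a1 and Col19a1 were well above background on none of the arrays, Col9a3 on 1 nonTx array and Col22a1 on 1 array of each group.

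Type VI chains assemble into beaded filaments that anchor cells to the matrix. The Col6a1 signal was 385, 306, 364 and 375 in nonTx and 511, 202, 295 and 306 in Tx. Both extremes were Tx arrays, Tx 1 the highest and Tx 2 the lowest. Its difference was -0.04 ± 0.18, with an interval of -0.45 to 0.37.

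Col6a2 had signals of 33.9, 25.5, 36.0 and 30.7 in nonTx and 33.9, 17.8, 32.2 and 26.1 in Tx, with a difference of -0.07 ± 0.23. Tx 2 was again lowest and the groups overlapped. Col6a3 had signals of 222, 175, 184 and 233 in nonTx and 268, 176, 167 and 189 in Tx, with a difference of 0.12 ± 0.12. Its highest and lowest raw signals both lay in Tx, whereas on scaled values both extremes lay in nonTx. Col6a5, which passed through 3 nonTx arrays, gave -0.21 ± 0.30. Col6a4 was well above background on 1 array of each group and Col6a6 on none of the arrays.

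Col18a1 encodes the multiplexin chain from which endostatin is cut, and is expressed by hepatocytes. Its signal was 49193, 43328, 43349 and 45152 in nonTx and 51809, 40497, 35847 and 40355 in Tx. It had the smallest spread between replicates of any tested chain, a pooled SD of 0.08 (log2). The difference was 0.04 ± 0.08, with an interval of -0.13 to 0.22 and an adjusted p of 0.821 in limma; it was -0.08 with normexp, -0.12 with quantile normalization and -0.11 with no scaling.

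Col15a1, the other multiplexin, was not tested. The signal of its probe A_55_P2060386 was 4.05, 21.3, 44.1 and 2.84 in nonTx and 3.15, 9.17, 5.65 and 3.13 in Tx. It was well above background on nonTx 2 and nonTx 3 only.

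Col8a1 is a short chain of vessel walls. Its signal was 102, 109.9, 89.9 and 135 in nonTx and 86.8, 89.7, 86.2 and 74.98 in Tx. The raw signals did not overlap, the lowest nonTx array being at 89.9 and the highest Tx array at 89.7. After scaling they did overlap, and the difference was -0.20 ± 0.17, with an adjusted p of 0.597 in limma. Col8a2 was well above background on 1 nonTx array and Col10a1 on none of the arrays.

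Of the membrane-spanning chains, Col13a1 gave -0.05 ± 0.21, Col17a1, a chain of epithelial anchoring structures, -0.06 ± 0.17 and Col25a1 -0.38 ± 0.41. Without Tx 3 the Col25a1 difference was 0.09. Col23a1 was well above background on 1 Tx array. Col7a1, the chain of anchoring fibrils, gave -0.09 ± 0.21 and Col28a1 was well above background on none of the arrays.

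**Figure D2:**
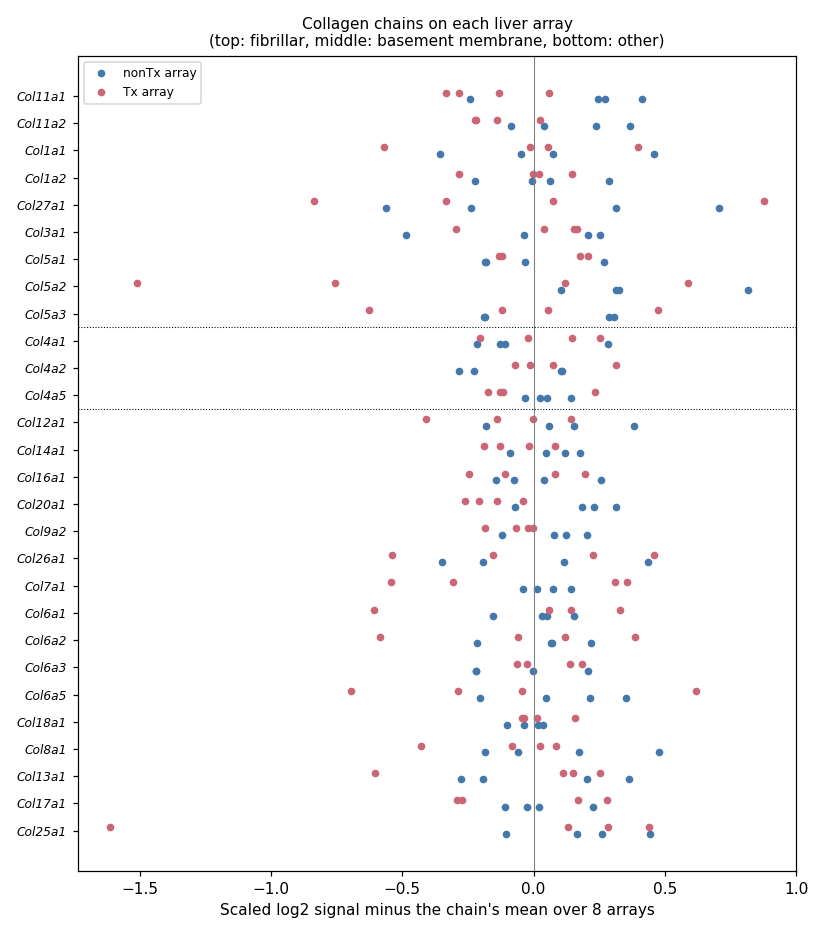
Scaled log2 signal of each tested chain on each of 4 nonTx and 4 Tx arrays, minus the chain's mean over the 8 arrays, with fibrillar chains on top, basement membrane chains in the middle and the others below. The 2 groups overlap for all 28 chains, and Col5a2, Col25a1 and Col27a1 spread most.

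The spread between replicates was somewhat larger for collagen chains than for genes in general. The pooled SD of the scaled log2 signal had a median of 0.24 over the tested chains and 0.19 over all tested genes. It ran from 0.08 in Col18a1 to 0.70 in Col25a1. Single arrays stood apart over a whole class. The median deviation of the fibrillar chains from their own means was 0.07, -0.19, 0.21 and 0.27 on nonTx 1 to 4 and -0.13, -0.12, 0.14 and 0.02 on Tx 1 to 4. The 4 nonTx medians alone spanned a range that holds all 4 Tx medians.

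Part of this spread was shared between chains. Over the 8 arrays, the scaled log2 signals of Col1a1 and Col1a2 had a Pearson r of 0.98 (exact permutation p = 0.000322, 0.00258 adjusted over 8 chain pairs) and a Spearman rho of 0.98 (exact permutation p = 0.000397, adjusted 0.00317). With each group's mean removed r was 0.98, within nonTx it was 0.999 and within Tx 0.99. Without Tx 2 and nonTx 4, the arrays farthest from the median, it was 0.95. Among all other tested genes, 0.00606% had an r with Col1a1 as high, which is Col1a2 itself. After scaling, both chains were highest on nonTx 4 and Tx 3 and lowest on Tx 2 and nonTx 2, so that each group held high and low arrays.

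Col3a1 followed both type I chains less closely. Its r was 0.82 with Col1a1 (exact permutation p = 0.0156, adjusted 0.0417) and 0.84 with Col1a2 (exact permutation p = 0.0108, adjusted 0.0417). The Spearman rho was 0.67 and 0.64, with an adjusted exact permutation p of 0.192 for each. Without the same 2 arrays r was 0.75 and 0.82. Of all tested genes, 0.303% had an r with Col1a1 as high as that of Col3a1.

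The subunits of other molecules did not pass this test at an adjusted p of 0.05. Col4a1 and Col4a2 had an r of 0.48 (adjusted exact permutation p = 0.30), although their annotated starts are 21 bases apart, and 20.2% of genes had as high an r with Col4a1. Col6a1 and Col6a2 had an r of 0.74 (adjusted exact permutation p = 0.117) that was 0.57 without Tx 1 and Tx 2, with a Spearman rho of 0.29. Col6a1 and Col6a3 had an r of 0.51, which was 0.85 without the same arrays, and a rho of 0.83 (exact permutation p = 0.0154, adjusted 0.0615). Col6a2 and Col6a3 had an r of 0.16 and Col5a1 and Col5a2 one of -0.02. An r over 8 arrays that share a slide also holds whatever the arrays share in RNA quality and labelling, and the part of these was not tested.

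**Figure D3:**
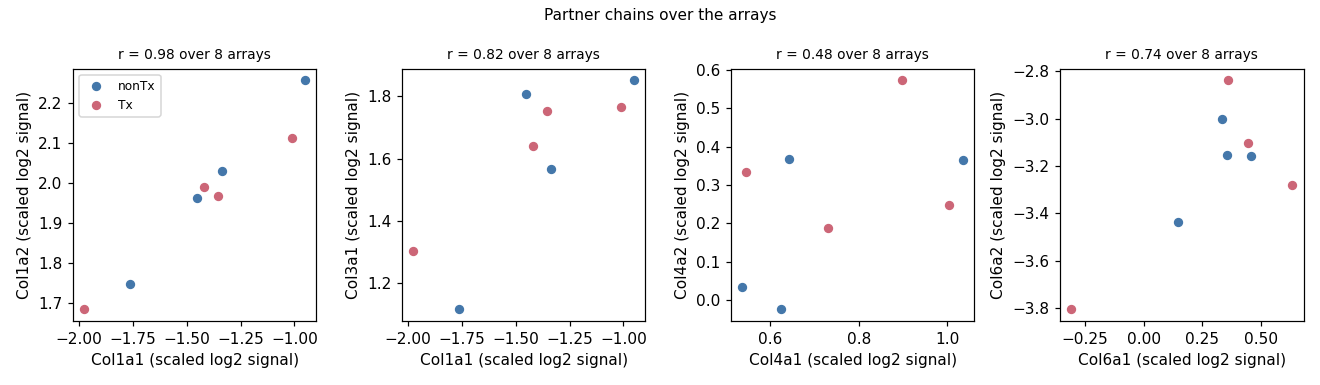
Scaled log2 signals of 4 pairs of chains, each point 1 of 8 arrays (4 nonTx, 4 Tx), with Pearson's r above each panel. Col1a1 and Col1a2 lie close to a line (r = 0.98) with both groups along it, while Col4a1 and Col4a2 scatter (r = 0.48).

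Probes of the same chain did not always give the same answer. Among the 28 tested chains, 7 had several tested probes, 16 in all, and 3 of these chains had probes of both signs. Of all 37 tested collagen probes, 3 had Tx and nonTx arrays that did not overlap on scaled values, against 7.87% of all probes. None of the 37 passed the threshold. At an unadjusted p under 0.05 limma called 5 of the 37, where it called 13.2% of all probes. Of the 3 probes 2, and of the 5 probes 3, had entered the test only through the group where they were high, so neither count supports a difference.

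Col26a1, an extracellular chain first described in reproductive tissue, had 3 tested probes. The brightest, A_66_P100904, had signals of 43.0, 49.1, 29.8 and 31.5 in nonTx and 29.9, 29.5, 41.6 and 34.6 in Tx, and a difference of -0.002 ± 0.25 with an interval of -0.57 to 0.57. The second, A_55_P2098120, which is annotated to another transcript, had 25.0, 5.12, 2.65 and 2.65 in nonTx and 31.9, 23.6, 31.5 and 19.4 in Tx. It was well above background on 1 nonTx array and all 4 Tx arrays, with nonTx 1 close to the Tx arrays and the other nonTx arrays near the floor. Its measured difference was 2.41 ± 0.62, with an interval of 1.02 to 3.80 and an adjusted p of 0.283 in limma. This probe, like the next, entered the test only through its Tx arrays, which favours a higher value there.

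The third, A_51_P435380, is annotated to the same transcript as the brightest. It had 20.02, 3.15, 2.64 and 3.43 in nonTx and 22.1, 19.6, 17.2 and 8.55 in Tx. Here too nonTx 1 stood with the Tx arrays and apart from the other nonTx arrays. It was well above background on 1 nonTx and 3 Tx arrays, and gave 1.86 ± 0.60 with an adjusted p of 0.311 in limma. Without nonTx 1 the differences were 3.11 and 2.51, with adjusted p-values of 0.136 and 0.215 in limma, and with normexp they were 0.51 and 0.37.

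Col13a1, a chain of the cell surface, also differed between probes, at a higher signal. Its brightest probe had 313, 377, 441 and 268 in nonTx and 435, 195, 295 and 318 in Tx. A_55_P2721673, annotated to another transcript, had 68.3, 76.8, 68.1 and 75.5 in nonTx and 108, 73.1, 81.4 and 66.4 in Tx, and was well above background on all 8 arrays. On scaled values all its Tx arrays stood above all nonTx arrays, with a difference of 0.32 ± 0.13, or 1.25-fold, an interval of 0.03 to 0.61 and an adjusted p of 0.352 in limma.

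The second Col4a5 probe, A_51_P216005, is annotated to another transcript variant. It had 25.5, 26.5, 27.1 and 22.4 in nonTx and 24.4, 15.3, 9.79 and 13.6 in Tx. All Tx arrays were below all nonTx arrays on scaled values, and it was well above background on 4 nonTx arrays and 1 Tx array. The difference was -0.60 ± 0.22, with an interval of -1.09 to -0.12 and an adjusted p of 0.328 in limma, where the brightest Col4a5 probe gave -0.09. This probe entered the test through its nonTx arrays alone, which favours lower values in Tx, and 3 of its Tx arrays lie in the background. With normexp its difference was -0.06.

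**Figure D4:**
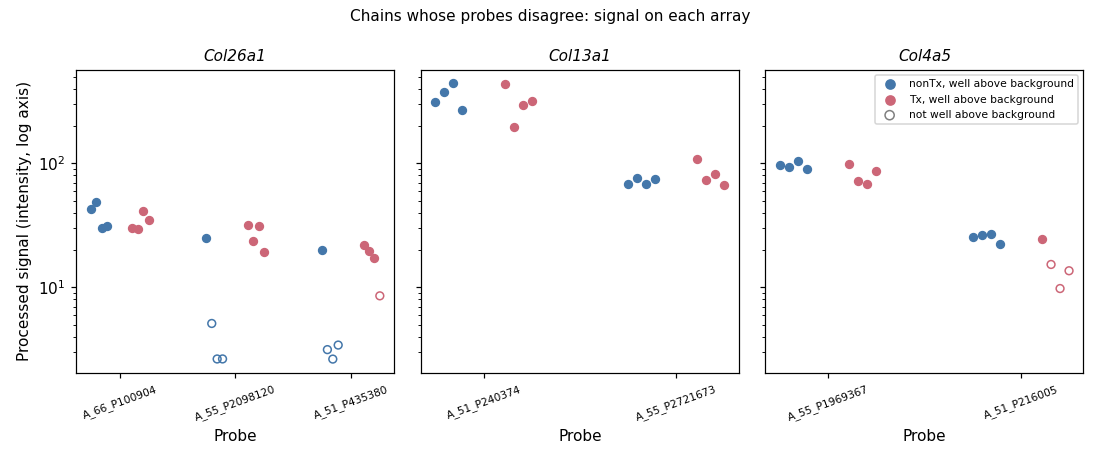
Processed signal (intensity, log axis) of each tested probe of Col26a1, Col13a1 and Col4a5 on 4 nonTx and 4 Tx arrays, with open circles where the probe was not well above background. The dim Col26a1 probes separate 3 nonTx arrays from Tx, while the brightest one overlaps.

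Genes that make and mature collagen mostly had a higher mean in Tx, as did 56.3% of all genes, and none passed the threshold. All 10 spike-in RNAs were higher there too, by 0.06 to 0.37 (log2), and their part in this list was not tested. Of 33 such genes on the array 28 were tested, 22 with a higher and 6 with a lower mean in Tx, with a median of 0.11, which was 0.21 with scaling to the median and -0.04 with no scaling. The median of all genes moved with it, from 0.03 to 0.13 and -0.13. In 5 of the 28, P3h1, Mia2, Ppib, Bmp1 and Plod3, all Tx arrays stood above all nonTx arrays, where 5.11% of all genes did so. P4ha3, at -0.71, is named because it entered the test through nonTx alone, which favours a lower value in Tx.

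P3h1, which hydroxylates proline in the collagen helix, had signals of 161, 159.6, 147 and 130.4 in nonTx and 212, 163, 179 and 166 in Tx. All Tx arrays were higher. Its difference was 0.42 ± 0.11 with an adjusted p of 0.283 in limma, and was 0.20 with its probes averaged. Ppib, its partner and a proline isomerase of the endoplasmic reticulum, gave 0.30 ± 0.09, and Mia2, which helps to export bulky cargo from there, 0.25 ± 0.08. Both have many other clients in hepatocytes. Bmp1, which removes the end piece of procollagens, gave 0.21 ± 0.08 and Plod3, a lysyl hydroxylase, 0.18 ± 0.09, both named after their values were seen. Of these 5 genes, P3h1 alone kept groups without overlap with quantile normalization and with no scaling, P3h1 and Ppib did with normexp, and Ppib alone with probes averaged. With quantile normalization Ppib was 0.12, Mia2 0.10 and Bmp1 0.07, and with probes averaged Mia2 was 0.002.

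**Figure D5:**
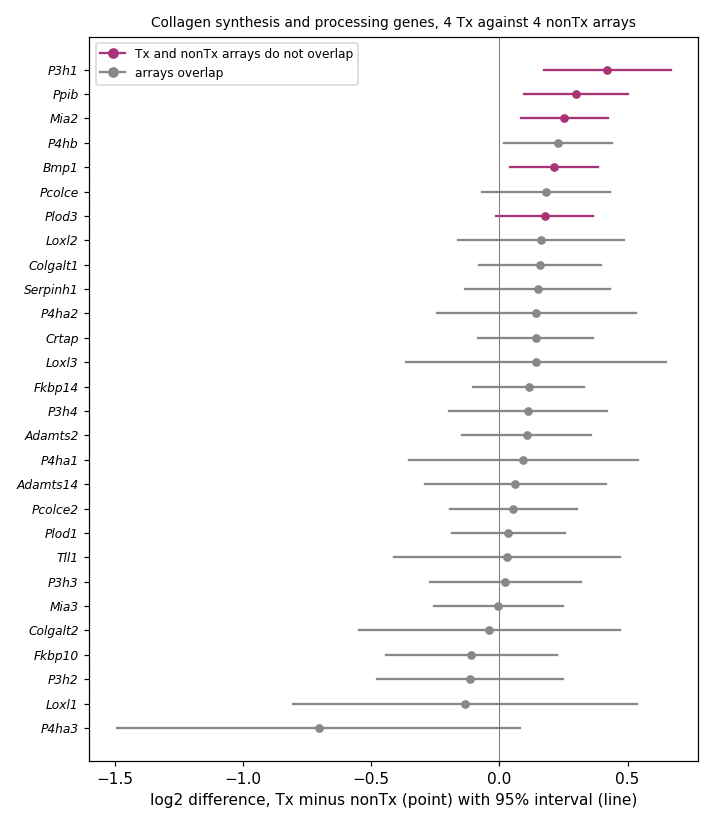
Log2 difference, Tx minus nonTx (point), with its 95% interval (line) for 28 genes of collagen synthesis and processing; coloured points mark genes whose 4 Tx and 4 nonTx arrays do not overlap. Those 5 genes all lie right of 0, and none passed the adjusted threshold.

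Among 9 tested of 14 genes of collagen breakdown and its inhibitors, 4 were higher and 5 lower, with a median of -0.09. Its sign turned with the scaling, to 0.01 with scaling to the median, where the median of all genes was 0.13. Fap, a protease of activated fibroblasts, was lower by -0.72 ± 0.19, Timp1, an inhibitor of matrix proteases, higher by 0.38 ± 0.10 and Mmp19, a matrix protease, higher by 0.28 ± 0.08. In each of these 3, named for the smallest p, the groups did not overlap, as in 8.06% of all genes, and the adjusted p-values in limma were 0.283, 0.287 and 0.296. With normexp Fap was -0.17, and with quantile normalization Mmp19 was 0.14. Of the 7 tested of 9 collagen receptors, 3 were higher and 4 lower, with a median of -0.10. The collagen-binding integrin chains Itga1 and Itga10 gave -0.20 ± 0.11 and 0.24 ± 0.13, and their partner Itgb1 0.09 ± 0.07.

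Small proteoglycans that bind fibrils were tested for 6 of 8, with 4 higher, 2 lower and a median of 0.06, which was -0.08 with quantile normalization and -0.09 with no scaling. Of these, Lum gave 0.40 ± 0.15 (adjusted p = 0.335 in limma), Dcn 0.12 ± 0.08 and Fmod -0.24 ± 0.18. Partners of type IV collagen in basement membranes were tested for 13 of 15, with 3 higher, 10 lower and a median of -0.07. Among them the perlecan gene Hspg2 gave -0.30 ± 0.18 and the laminin chains Lama2 and Lamb1 -0.27 ± 0.18 and 0.15 ± 0.12.

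Markers of the cells that make collagen were measured beside the chains, and 0 passed the threshold. Of the stellate cell markers 14 of 15 were tested, with 9 higher and 5 lower and a median of 0.13. Their summed signal over the 75th percentile ran from 131 to 148 in nonTx and from 141 to 163 in Tx, and Gfap was above background on none of the arrays. The bright genes Ecm1, Colec11, Colec10 and Angptl6 weigh most in these sums. Signals of Ecm1 ran from 10980 to 17384, and those of Lrat from 324 to 753. Pdgfrb gave -0.29 ± 0.11 (adjusted p = 0.340 in limma) with no overlap of the groups, as in 8.06% of all genes. Angptl6 gave 0.16 ± 0.08 and Colec10 0.18 ± 0.09.

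Portal fibroblast markers were tested for 11 of 12, with 3 higher and 8 lower, a median of -0.09 and sums of 25.0 to 35.0 in nonTx and 33.4 to 36.7 in Tx. Thy1, which T cells express too, gave -0.85 ± 0.16 with an adjusted p of 0.164 in limma and no overlap, as in 8.06% of all genes. Fbln1 gave -0.88 ± 0.31, which was -0.14 with normexp and -0.20 with its probes averaged. Eln gave -0.60 ± 0.24 but was well above background on none of the Tx arrays, which favours a lower value there, and was 0.003 with normexp. Gas6, named after its values were seen, went the other way at 0.30 ± 0.12 (adjusted p = 0.359 in limma). It makes up 19.5 to 30.2 of the sums in nonTx and 29.0 to 31.4 of those in Tx. Markers of myofibroblasts and smooth muscle were tested for 7 of 9, with 5 higher and 2 lower, and sums of 18.3 to 27.0 and 21.7 to 30.6, and Cnn1 and Lmod1 were above background on none of the arrays. Of these, Postn gave 0.44 ± 0.24, Myl9 0.39 ± 0.24 and Actg2 0.22 ± 0.21. Single arrays weigh on them: Postn was 0.26 without Tx 1, Myl9 0.15 without nonTx 1 and Actg2 0.07 without Tx 3.

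Mesothelium, the cell layer over the liver surface, is a further source of collagen. All 6 tested of its 7 markers had a lower mean in Tx under the scaling used here, with a median of -0.86, sums of 0.587 to 1.32 in nonTx and 0.186 to 1.69 in Tx and Lrrn4 above background on none of the arrays. Of these 6, Upk1b, Upk3b, Gpm6a and Krt14 entered the test through nonTx alone, which favours lower values in Tx. Without Tx 2, 4 of 6 were lower with a median of -0.19, and with normexp 5 of 6 with a median of -0.09. Upk1b gave -1.03 ± 0.50, Upk3b -0.83 ± 0.59 and Gpm6a -0.89 ± 0.66, which without Tx 2 were -0.63, -0.37 and -0.33 and with normexp -0.18, -0.07 and -0.10. Sinusoidal endothelium, a source of basement membrane chains, had all 12 markers tested, with 6 higher and 6 lower, a median of -0.03 and sums of 153 to 159 in nonTx and 151 to 177 in Tx. Of the cholangiocyte markers 5 of 8 were tested, with 1 higher and 4 lower, a median of -0.21 and sums of 1.74 to 1.83 and 1.34 to 1.86. Krt7, at -0.55, entered the test through nonTx alone, which favours a lower value in Tx.

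Markers of other cell types, hepatocytes among them, were summed in the same way. Kupffer cell markers were tested for 7 of 7, with 6 higher and 1 lower, a median of 0.06 and sums of 105 to 138 in nonTx and 103 to 156 in Tx. The hepatocyte markers had 6 higher and 4 lower, with a median of 0.02 and sums of 4053 to 4344 in nonTx and 3698 to 4432 in Tx. Ttr, with the smallest p of these, gave -0.37 ± 0.07 (adjusted p = 0.185 in limma). Its groups did not overlap, as in 8.06% of all genes. Tat gave 0.26 ± 0.19 and Fgb -0.13 ± 0.09. Exocrine pancreas markers were tested for 3 of 7, all higher, with a median of 0.35 and sums of 37.4 to 59.8 in nonTx and 58.4 to 93.9 in Tx. Cela1 weighs most in these sums and was well above background on all arrays. Its raw signals ran from 7907 to 14449 in nonTx and from 14948 to 16780 in Tx. On scaled values the groups overlapped, with a difference of 0.61 ± 0.20 and an adjusted p of 0.313 in limma. Signals of Amy2a5 ran from 1590 to 3976 and those of Ctrb1 from 255 to 502 over both groups. Whether the samples held pancreatic tissue was not tested. Without Tx 4, which held the highest sum, Amy2a5 was -0.04, Ctrb1 0.30 and Cela1 0.52, and the highest Tx sum was 75.2. Adipocyte markers were tested for 2 of 6, both higher, with a median of 0.25, and Adipoq, Cfd, Plin1 and Retn were above background on none of the arrays. The part of these cell markers in the values of the chains was not tested.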

How the data were processed

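Liver RNA (0.5 ug per array) was labelled with Cy3, per the labels. The authors' scanner software subtracted background from the spot intensities and detrended them; the file headers give its version as Feature Extraction 10.7.1.1 and the submitters' processing notes as 9.1. The deposited series table repeats these intensities, within 0.1% for 99.8% of values. Its log2 values were rebuilt within 0.0016 as the authors' scaling to the 75th percentile followed by centring on each probe's median.

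Control spots were dropped, outlier spots (54 to 120 per array) made missing and spots of a probe averaged; 0 spots were saturated. Testing required a signal well above background on 3 or more of the 4 arrays in either group, and 2 or more values in each. The groups were compared in R 4.3.3 with limma 3.58.1 (trended eBayes, Benjamini-Hochberg over all tested probes, threshold 0.05), which was tested on simulated data. The brightest tested probe stands for a gene. Symbols came from the files, and 1276 were updated through Entrez IDs, which matched for 43901 of 46119 probes. Array number, 4 per group, limits the precision. Same-numbered nonTx and Tx arrays deviated together with r of -0.01 to 0.10, so replicate numbers were not taken as pairs. No coordinates of probes are given, since the headers name another build than the reference.

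The members and gene lists were chosen with earlier results of these data known. Named were all tested chains, probes of opposite sign, and up to 3 genes per list with the smallest p. Alternatives were normexp background correction (offset 50), quantile, median and no scaling, the authors' values, other filters, no trend, the replicate number as a block, averaging over probes of a gene and each array left out.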

Additional observations from a re-analysis of the deposited data

Results flagged for a closer look

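In 4 of 66 groups of 4 arrays, 1 array lay far from the other 3 on the scaled log2 signal by Dixon's criterion, where chance gives about 1 in 20. Col4a5 stood high on Tx 4, at -1.38 with its nearest neighbour at -1.73, a raw signal of 86.3. Col13a1 stood low on Tx 2, at -0.36 against 0.36, a raw signal of 195. Col25a1 stood low on Tx 3, at -5.20 against -3.46, a raw signal of 6.26. The Col26a1 probe A_51_P435380 stood high on nonTx 1, at -3.91 against -6.32, a raw signal of 20.02, where the other nonTx arrays were not well above background.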

How the results depend on the processing

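No collagen chain or probe passed the threshold under any alternative, with a lowest adjusted p of 0.136 in limma over 598 values (the Col26a1 probe A_55_P2098120 without nonTx 1). Over all probes, 0 passed it in limma, where 13.2% had an unadjusted p under 0.05. The count was 2 with normexp, 6 with scaling to the median and 1 each with no scaling, the authors' values, no variance trend and the replicate block. Leaving out 1 array gave 0 to 188, the latter without Tx 2. With the replicate block 1 probe was called and 0 chains, and only nonTx 2 and nonTx 3 correlated best with the Tx array of their own number. Chains without overlap were 1 with quantile normalization (Col20a1), 1 with no scaling (Col8a1) and 1 with the mean of a gene's probes (Col4a5), and 0 to 1 with an array left out. The slide as a block was not run, since all arrays share 1 slide.

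The median of all chains and that of the other chains was 0.020 with scaling to the median and -0.24 with no scaling. In the same 2 settings the median of all tested genes was 0.13 and -0.13. With no scaling the medians were -0.073 for basement membrane chains, -0.044 for synthesis genes, -0.25 for breakdown, -0.26 for receptors, -0.093 for proteoglycans and -0.23 for basement membrane partners. With scaling to the median, synthesis genes had 0.21, breakdown 0.013, receptors -0.0011 and proteoglycans 0.17. Breakdown genes had 0.025 with normexp, 0.024 with quantile normalization and 0.072 with no filter on dim probes. Receptors had 0.035 with normexp and 0.066 with no filter, and proteoglycans -0.081 with quantile normalization. With 1 array left out, the medians ran from -0.13 to 0.033 for all chains, -0.21 to 0.025 for fibrillar, 0.015 to 0.19 for basement membrane and -0.13 to 0.033 for other chains. Those of the gene lists ran from 0.086 to 0.17 for synthesis, -0.15 to 0.039 for breakdown, -0.19 to 0.021 for receptors, 0.032 to 0.097 for proteoglycans and -0.13 to -0.00052 for basement membrane partners.

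The correlation of Col5a1 with Col5a2 was 0.081 with quantile normalization and 0.13 with no scaling. That of Col6a1 with Col6a2 was 0.80 with scaling to the median (adjusted exact permutation p = 0.0408) and 0.84 with no scaling (0.0192), and that of Col6a1 with Col6a3 was 0.80 with no scaling (0.0207), scalings chosen after seeing the data.

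Under other settings, 570 of 611 log2 differences of 63 named genes and probes kept their sign and 41 did not. Hepatocyte, cholangiocyte and pancreas markers and P4ha3 were not included. No turned value was larger than 0.15 in size except that of Col26a1 with its probes averaged. With normexp these were Col11a1 at 0.056, Col12a1 at 0.051, Col17a1 at 0.0074, Col18a1 at -0.076, Col1a1 at 0.0025, Col25a1 at 0.023, Col26a1 at 0.056, Col4a5 at 0.0022, Col6a2 at 0.061, Col6a5 at 0.045, Col7a1 at 0.0032 and Eln at 0.0032. With quantile normalization they were Col17a1 at 0.0098, Col18a1 at -0.12, Col26a1 at 0.067, Col3a1 at -0.0091, Col6a2 at 0.012, Dcn at -0.048 and Itgb1 at -0.050. With scaling to the median they were Col13a1 at 0.055, Col16a1 at 0.062, Col17a1 at 0.042, Col1a1 at 0.036, Col1a2 at 0.040, Col26a1 at 0.098, Col4a5 at 0.0080, Col6a1 at 0.061, Col6a2 at 0.031 and Col7a1 at 0.0085. With no scaling they were Col18a1 at -0.11, Col3a1 at -0.13, Col4a1 at -0.073, Col4a2 at -0.0067, Col5a1 at -0.092, Col6a3 at -0.041, Dcn at -0.036, Itgb1 at -0.067, Lamb1 at -0.0088 and the Col11a2 probe A_55_P2507485 at -0.15. With a gene's probes averaged they were Col13a1 at 0.14 and Col26a1 at 1.42. The cause of these turns was not tested.

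With 1 array left out, 471 of 504 differences kept their sign. The others belonged to 15 genes and probes, and their ranges were -0.15 to 0.15 for Col13a1, -0.11 to 0.040 for Col16a1, -0.16 to 0.029 for Col17a1, -0.0024 to 0.065 for Col18a1, -0.21 to 0.11 for Col1a1, -0.14 to 0.026 for Col1a2, -0.59 to 0.094 for Col25a1 and -0.16 to 0.18 for Col26a1. Further ranges were -0.42 to 0.15 for Col27a1, -0.13 to 0.13 for Col3a1, -0.29 to 0.081 for Col5a3, -0.16 to 0.16 for Col6a1, -0.21 to 0.11 for Col6a2, -0.23 to 0.073 for Col7a1 and -0.073 to 0.18 for the Col11a2 probe A_55_P2507485.

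Signals near background limit Col5a2, Col11a1, Col12a1, Col6a5, Col25a1 and the dim probes of Col26a1, Col4a5 and Col11a2. They also limit P4ha3, Eln, Krt7 and the mesothelium markers Upk1b, Upk3b, Gpm6a and Krt14, and 16 chains could not be tested at all.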
